A study of Mus musculus with 16 samples.

Results

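The genes described here are those of the Wnt signalling system that sit outside the cell or in its membrane, taken by their names from the protein-coding genes of both expression tables. They number 46 of the 56941 genes in each table, of which 21684 are protein-coding. They are 19 Wnt ligands, 10 Frizzled receptors (Fzd1 to Fzd10), the 2 co-receptors Lrp5 and Lrp6, the 4 R-spondins (Rspo1 to Rspo4), the 3 R-spondin receptors Lgr4, Lgr5 and Lgr6, the 4 secreted frizzled-related proteins Sfrp1, Sfrp2, Sfrp4 and Sfrp5, and the 4 Dickkopf proteins (Dkk1 to Dkk4). The gene once called Sfrp3 is listed as Frzb and was read with the other pathway genes. Bulk RNA-seq was run on fibroblast-lineage cells and on sympathetic nerve explants that had shared medium across a porous insert, to ask how each side alters gene expression in the other. There were 16 libraries. PSCs cultured alone (PSC, n = 3) and PSCs cultured with SCG explants (PSC+SCG, n = 3) form one table. The other holds SCG explants on their own (SCG, n = 3), beside fibroblasts of the NIH/3T3 line (SCG+MEF, n = 3) or beside PSCs (SCG+PSC, n = 4). The PSCs were mPSC1 cells, 1 immortalized line of mouse pancreatic stellate cells, seeded at 10000 cells per insert. The SCG explants were superior cervical ganglia, the sympathetic ganglia of the neck, from C57BL/6J pups between postnatal days 1 and 4, placed at 8 to 13 per well and cultured for about 70 hours in medium with nerve growth factor. An explant holds neurons, satellite glia, Schwann cells, fibroblasts, macrophages and vessel cells, so its libraries are mixtures, and fewer cells of a type cannot be told apart from less RNA per cell.

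Wnt ligands are secreted lipid-modified proteins that bind a Frizzled receptor. When they also bind the co-receptor Lrp5 or Lrp6, beta-catenin is spared from degradation and enters the nucleus, where it acts with TCF/LEF factors. Other Wnts, of which Wnt5a is the best known, act through Frizzled with Ror or Ryk receptors and not through beta-catenin. R-spondins bound to Lgr4, Lgr5 or Lgr6 remove the ubiquitin ligases that clear Frizzled from the surface, and so strengthen the response to Wnt. Secreted frizzled-related proteins bind Wnt ligands, and Dkk1, Dkk2 and Dkk4 bind Lrp5 and Lrp6, whereas Dkk3 is a divergent family member whose part in Wnt signalling is unsettled. In sympathetic ganglia Wnt signals are known for axon growth and branching, and in stellate cells for the activated, matrix-producing state.

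Reads on genes ranged from 31900689 to 41632381 in the 14 libraries where they could be recovered from the deposited values. All 7 fibroblast markers were measured in PSCs and their sum ranged from 395936 to 682210, but Lum had means of only 14.3 in PSC and 17.5 in PSC+SCG, against 1064 in SCG, whereas the neuronal gene Slc18a2 and the glial gene Foxd3 were at 0 in all 6, and Th and Sox10 did not pass 3.9 normalized counts in any. All 10 markers of sympathetic neurons and all 7 of glia were measured in every SCG group. Within the SCG table, replicate 2 stood apart in every group. Summed counts of the 7 fibroblast markers were 390833 in SCG replicate 2 against 208256 and 272633 in the other SCG libraries, and the summed neuronal markers were 108036 there against 186722 and 242384. Libraries with the same replicate number deviated together in every comparison, so each comparison below is given without a block and, where it alters the call, with the replicate number as a block. Nothing in the labels says which libraries were cultured or prepared together. The p-values rest on the spread between these libraries, which the tests pool in part across genes.

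Of the 46 genes, 27 reached a mean of 10 normalized counts in at least 1 PSC group and 36 in at least 1 SCG group. In PSCs the Wnt side of the system was sparse and the receptor side was full. Only 7 of the 19 ligands reached that mean (Wnt4, Wnt5a, Wnt5b, Wnt9a, Wnt10a, Wnt10b and Wnt16), against 9 of the 10 Frizzled genes and both co-receptors. Wnt3a, Wnt9b, Sfrp5 and Dkk4 were at 0 in all 6 PSC libraries, which allows up to 3 reads in each. Lgr5 had 0.99 normalized counts in 1 PSC+SCG library and none in the others. Dkk1 stayed under 4 normalized counts. Wnt1, Wnt2, Wnt2b, Wnt3, Wnt6, Wnt7a, Wnt7b, Wnt8a, Wnt8b and Wnt11 were listed at between 0 and 11.8 normalized counts over the 6 libraries. Among ligands in PSCs cultured alone, Wnt10b led at 97.9 ± 16.2 normalized counts per kilobase of exon (SD, n = 3), above Wnt5a at 70.0 ± 19.1, though the libraries of the 2 genes overlapped. Both were well above Wnt9a at 14.9 ± 2.53 per kilobase.

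Per kilobase of exon, the highest members in PSCs cultured alone were Sfrp2 at 396 ± 210, Fzd2 at 381 ± 3.78, Dkk3 at 349 ± 110, Fzd7 at 324 ± 32.3 and Lrp6 at 313 ± 26.6 (mean ± SD, n = 3), followed by Lrp5 at 308 ± 34.5 and Fzd1 at 307 ± 44.1. Each of these overlapped with the next in the order, though not with all of the 7: every PSC library of Fzd2, at 377 to 385 per kilobase, lay above those of Fzd7, Lrp6, Lrp5 and Fzd1. The first gap between neighbours in the order came below Fzd1, where Fzd8 stood at 144 ± 16.3. Sfrp2, a Wnt-binding protein secreted by stromal cells, had 1454, 749 and 532 normalized counts in PSC replicates 1 to 3, and it was the least even of these members. Fzd2, a receptor of Wnt5a among others, was the most even, with 1409, 1399 and 1381. Fzd7 had 2026, 1681 and 1990.1 normalized counts, and Lrp6 had 5175, 4935 and 4375. Dkk3 had 2942, 2678 and 1532 normalized counts in the PSC libraries and 3025, 3753 and 2135 in the PSC+SCG libraries. The third library was the lowest of each group for both Dkk3 and Sfrp2, as were the summed fibroblast markers, at 457022 against 637207 and 661984 in PSC. For Lgr6, the R-spondin receptor discussed next, the third library was instead the highest.

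**Figure D1:**
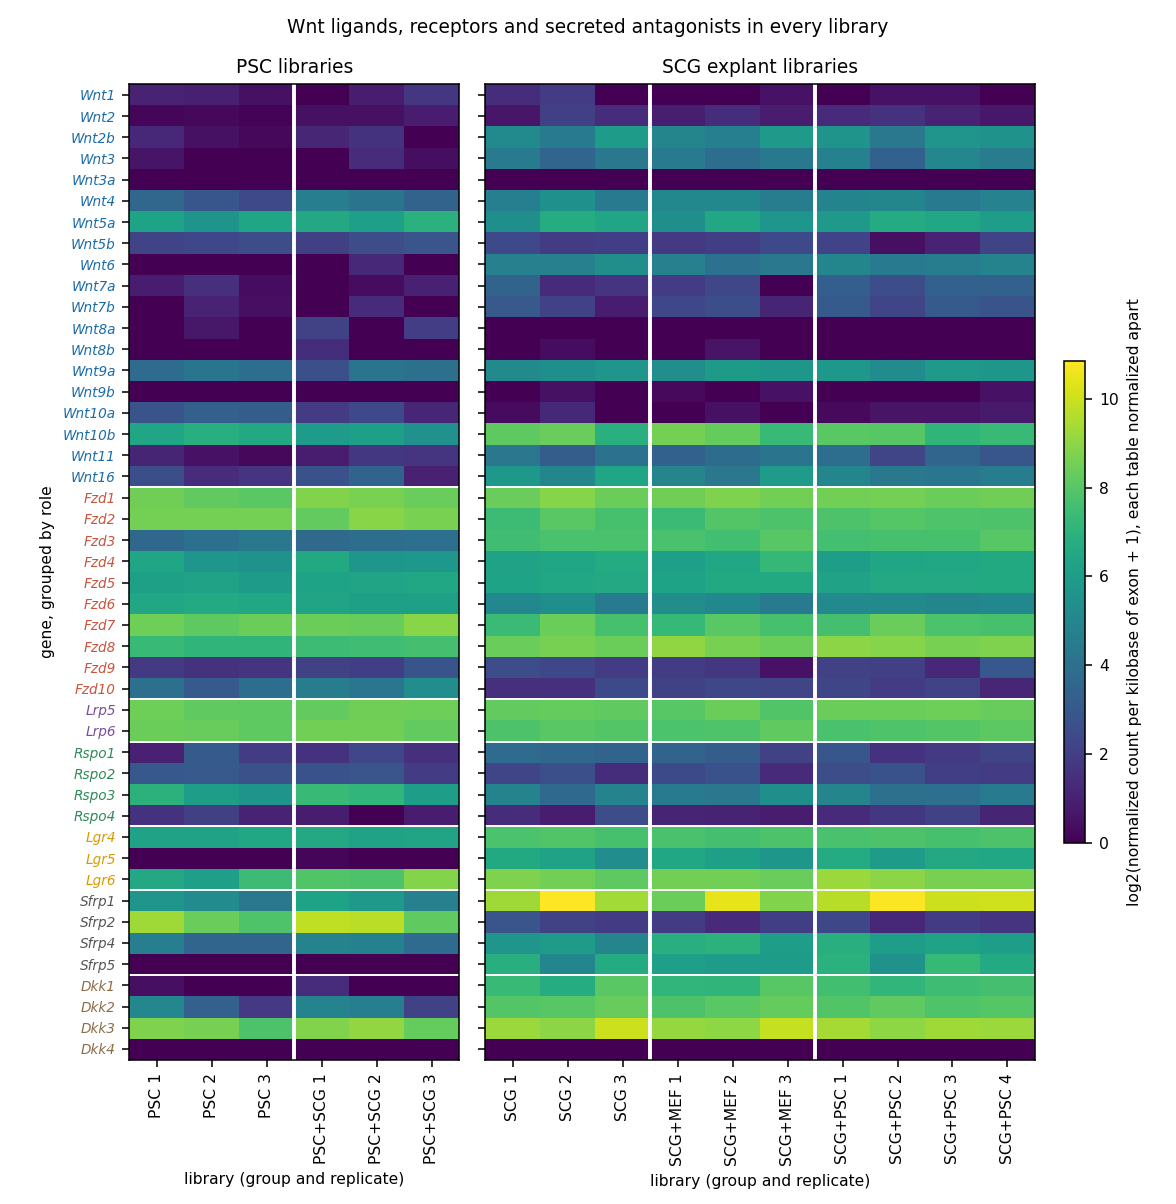
Heat map of the 46 genes (rows, by role and coloured by role) in the 16 libraries (columns), as log2 of the normalized count per kilobase of exon plus 1; white lines part the groups and the roles. The 2 tables were normalized apart, so a row can be read along each panel, and rows can be compared within a panel; Sfrp2 is among the brightest rows in PSCs (396 per kilobase in PSC) and dark in SCG explants, and Sfrp1, Lgr5, Dkk1 and Sfrp5 show the opposite.

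In SCG explants Sfrp1 and Dkk3 were the most abundant of the family. Sfrp1 led with 1039 ± 693 normalized counts per kilobase in SCG (SD, n = 3), ahead of Dkk3 at 705 ± 281, and the libraries of these 2 genes overlapped. After a gap followed Fzd1 at 378 ± 73.3, Lgr6 at 359 ± 71.4 and Fzd8 at 353 ± 31.7, which overlapped with each other. Fzd1 had 1384, 1939 and 1430.3 normalized counts in SCG, 1513, 1796 and 1542 in SCG+MEF, and 1566, 1609.8, 1411 and 1497 in SCG+PSC, so its 3 groups overlapped. Dkk3 had 4038, 3422 and 7010.4 normalized counts in SCG, 3867, 3500.1 and 6466 in SCG+MEF, and 4512, 3484, 4294 and 4059.8 in SCG+PSC. The SCG and SCG+MEF libraries numbered 3 were high for Dkk3 and the SCG+PSC library numbered 3 was not. Among ligands Wnt10b again led, at 243 ± 110 per kilobase in SCG, and Wnt5a was next at 76.0 ± 32.5.

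The explants also held members that PSCs nearly lacked. Lgr5, a marker of Wnt-responsive stem cells in other tissues, had 971, 763 and 396 normalized counts in SCG, and Dkk1 had 397, 250.2 and 648. Dkk2 had 1026, 1119.7 and 1355 normalized counts in SCG, against 134, 38.6 and 10.6 in PSC and 117, 103 and 13.8 in PSC+SCG. Sfrp2 went the other way, at 14.2, 7.61 and 6.15 normalized counts in SCG, 6.08, 3.5 and 7.1 in SCG+MEF and 9.59, 3.04, 6.41 and 5.04 in SCG+PSC. Since the tables were normalized apart, these contrasts between PSCs and explants were not tested. Wnt3a, Wnt8a and Dkk4 were at 0 in all 10 SCG libraries, which allows up to 3 reads in each.

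The comparison of PSC+SCG with PSC asks what a nearby sympathetic ganglion does to the stellate cells' own Wnt system. Lgr6 was higher in every coculture library, by about 2.8-fold, Wnt4 and Sfrp2 were higher in each same-numbered pair, and Wnt10b and Wnt10a were lower in each. Of the 37 members tested, 26 were higher and 11 lower in PSC+SCG, with a median log2 fold change of 0.25 against 0.01 over all 14541 protein-coding genes tested. Without a block, limma put 0 of the 37 past the threshold, which asks for an adjusted p no higher than 0.05 and a change of 0.5 or more on the log2 scale, as it did for 0% of protein-coding genes, and 7 of the 37 had an unadjusted p under 0.05, where 1.41% of protein-coding genes did. With the replicate block, 4 of the 37 passed (3 higher, 1 lower), against 0.523% of protein-coding genes, and 17 had an unadjusted p under 0.05, against 6.09%. The 2 groups did not overlap for 10 members, 6 higher and 4 lower, against 4.37% of protein-coding genes. The table gave no test on reads, since these could not be recovered for all 6 libraries.

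Lgr6, a receptor for R-spondins, had 692, 506 and 1272 normalized counts in PSC replicates 1 to 3 and 1746, 1666 and 3363 in PSC+SCG replicates 1 to 3. All coculture libraries lay above all libraries of PSCs alone, and the third library was the highest of each group. Its log2 fold change was 1.48 ± 0.37 (SE, n = 3 per group) without a block (adjusted p = 0.9999) and 1.48 ± 0.11 with it (adjusted p = 6.15e-08, range over 10 settings that kept all libraries, as for the ranges below, 1.11e-22 to 1.0). It stayed past the threshold in each of the 6 block fits that left out 1 library. Leaving out either library of a pair drops that pair from the comparison. Both fits then gave the same log2 fold change, 1.559, 1.368 and 1.525 for replicates 1 to 3. Each such fit had 1 residual degree of freedom, as for the other members of this comparison below. Lgr5 was too low to test. Lgr4, the most widely expressed of the family, had 550.5, 559 and 643 normalized counts in PSC and 691, 554 and 600.0 in PSC+SCG, with overlap. Per kilobase, Lgr6 stood at 111 ± 53.9 in PSC and 305 ± 129 in PSC+SCG, and Lgr4 at 78.4 ± 6.85 and 82.6 ± 9.4 (mean ± SD, n = 3).

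Wnt4, a ligand that acts by either branch depending on the tissue, was low, with 55.0, 32.9 and 21.2 normalized counts in PSC and 119.6, 84.9 and 50.0 in PSC+SCG. It was higher in each same-numbered pair although the lowest coculture library lay below the highest library of PSCs alone. Its change on the log2 scale was 1.22 ± 0.45 without a block (adjusted p = 0.9999) and 1.22 ± 0.27 with it (adjusted p = 0.0478, range 0.0225 to 1.0). Leaving out either library of replicate 1 or 2 from the block fit took Wnt4 out of the call (adjusted p up to 0.333), while the log2 fold change stayed between 1.15 and 1.27 over the 6 fits that left out 1 library.

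Wnt10b, a ligand of the beta-catenin branch, fell in the fit with the block, and per kilobase it stood below Wnt5a in PSC+SCG (58.5 ± 13.3 against 93.9 ± 26.7, mean ± SD, n = 3). It had 424, 587 and 485 normalized counts in PSC and 320.4, 351 and 221 in PSC+SCG, and the groups did not overlap. On the log2 scale the difference was -0.76 ± 0.22 without a block (adjusted p = 0.9999) and -0.76 ± 0.15 with it (adjusted p = 0.0223, range 0.0223 to 1.0). Of the 6 block fits that left out 1 library, only the one without PSC+SCG replicate 1 kept the call, and in all 6 the log2 fold change lay between -0.93 and -0.57. Wnt10a, its closest relative by sequence, had 25.4, 38.6 and 34.7 normalized counts in PSC and 11.9, 17.8 and 5.32 in PSC+SCG. Wnt10a was lower in all coculture libraries, with a log2 fold change of -1.54 ± 0.49, but did not pass the test with the block (adjusted p = 0.108).

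Sfrp2, on chromosome 3 (83673481 to 83681623, plus strand), had 2059, 1917 and 679 normalized counts in PSC+SCG against the 1454, 749 and 532 of PSC. The groups overlapped, since replicate 3 was low in each, and Sfrp2 was higher in each same-numbered pair. The log2 fold change was 0.74 ± 0.47 without a block (adjusted p = 0.9999) and 0.74 ± 0.15 with it (adjusted p = 0.0182, range 2.91e-07 to 1.0). The call was lost when either library of replicate 1 or 2 was left out, and without PSC replicate 2 the log2 fold change was 0.43 (adjusted p up to 0.585 over the 6 fits). Its measured relatives Sfrp1 and Sfrp4 were higher in each pair but did not pass. Sfrp1 had 238, 176 and 92.5 normalized counts in PSC and 378, 280.2 and 124 in PSC+SCG (log2 fold change 0.58 ± 0.18 with the block, adjusted p = 0.165), and Sfrp4 had 101, 44.3 and 44.3 in PSC and 115, 109.5 and 53.2 in PSC+SCG.

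**Figure D2:**
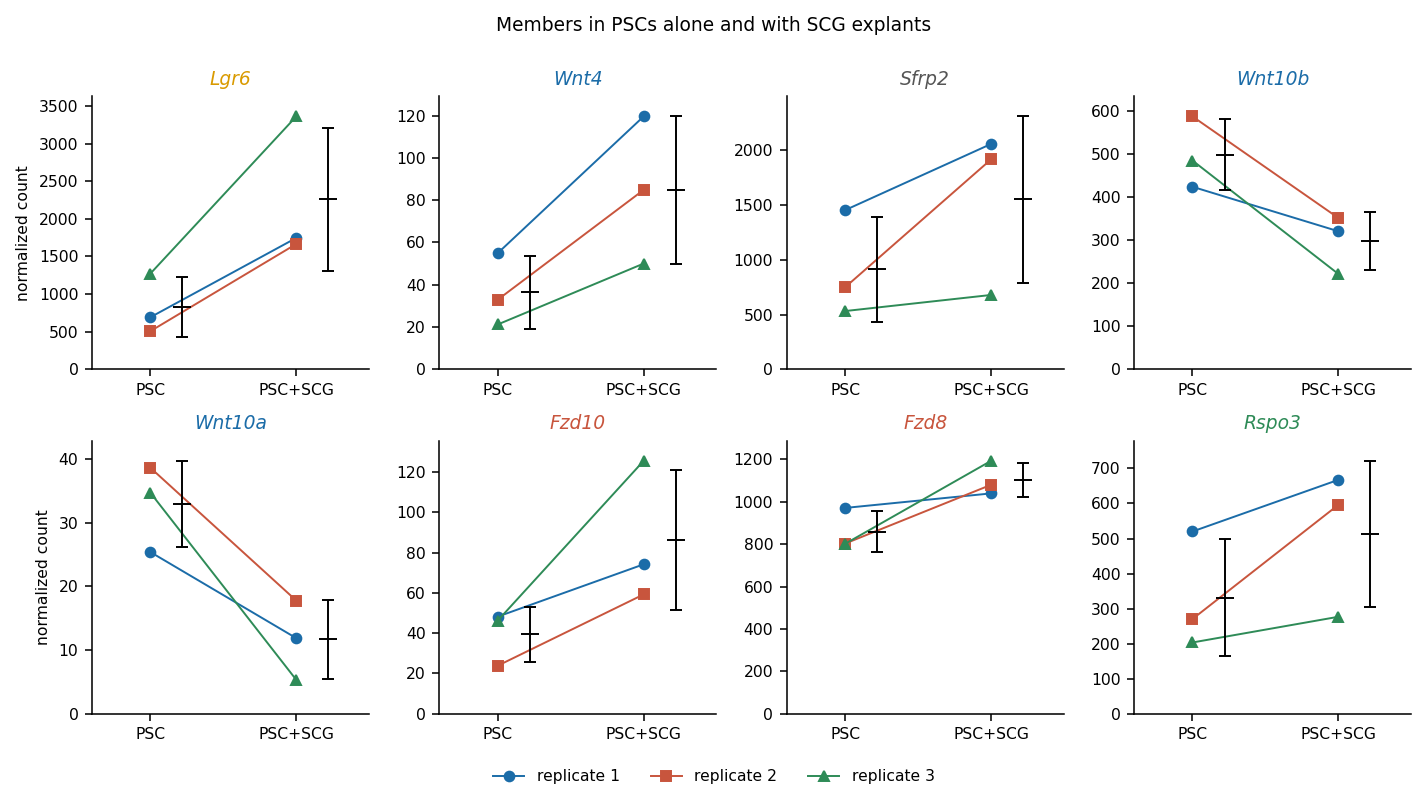
Normalized counts of 8 members in each library of PSC and PSC+SCG, each axis starting at 0; lines join libraries with the same replicate number, and the black bar to the right of each group is its mean ± SD (n = 3). Lgr6 in PSC+SCG lies between 1666 and 3363, above all PSC libraries, Wnt10b lies between 221 and 351, below all of them, and the lines of Wnt4 and Sfrp2 all run upward while the groups overlap.

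Among Frizzled receptors, 5 of 10 did not overlap between PSC and PSC+SCG, 4 higher and 1 lower, against 4.37% of protein-coding genes. None of the 10 passed the threshold. Fzd10 was low at 48.2, 23.8 and 46.2 normalized counts in PSC and higher at 74.2, 59.2 and 126 in PSC+SCG, without overlap (log2 fold change 1.10 ± 0.28 with the block, adjusted p = 0.0772). Fzd8 had 971, 803 and 801 normalized counts in PSC and 1039, 1079.5 and 1192 in PSC+SCG, again without overlap, at a log2 fold change of 0.37 ± 0.12 with the block (adjusted p = 0.237). Fzd6, which in many cells limits beta-catenin signalling, lay the other way, with 616, 673 and 593 in PSC and 539, 485 and 487 in PSC+SCG. Fzd5 was higher without overlap, at 433 to 519 in PSC and 534 to 629 in PSC+SCG, as was Fzd9 at under 14 normalized counts. Fzd1, Fzd2, Fzd3, Fzd4 and Fzd7 overlapped between the groups, Fzd1 with 1494, 1232 and 1137 in PSC and 1842, 1721 and 1388 in PSC+SCG. Fzd2 had 1098, 1784 and 1470.1 normalized counts in PSC+SCG and Fzd7 had 1995, 1875 and 2840.2. Lrp6 had 5772, 5713 and 4603 in PSC+SCG, and Lrp5 had 3411, 2913 and 2763 in PSC and 2987, 3529.7 and 3449 in PSC+SCG.

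Among R-spondins, the ligands of Lgr6, Rspo3 was the main one made by PSCs. It had 520.0, 270.2 and 203 normalized counts in PSC and 667, 596 and 277 in PSC+SCG, higher in each pair with overlapping groups (log2 fold change 0.65 ± 0.16 with the block, adjusted p = 0.0701). It was 0.40 without either library of replicate 2 (adjusted p up to 0.962), and 0.75 without either library of replicate 3, where it passed (adjusted p = 0.00337 and 0.00412). Rspo2 was less abundant, at 68.4 to 88.6 normalized counts in PSC and no more than 77.0 in PSC+SCG, and Rspo1 and Rspo4 stayed under a mean of 10 (Rspo1 2.54, 18.2 and 6.74 in PSC and 4.94, 9.87 and 4.26 in PSC+SCG). Wnt5a, the ligand of the branch that does not use beta-catenin, had 621, 388 and 677 normalized counts in PSC and 732, 553 and 979.7 in PSC+SCG. It was higher in each pair, but the groups overlapped and the log2 fold change of 0.43 ± 0.13 with the block did not pass (adjusted p = 0.162). Wnt2 was near the floor, between 0.96 and 2.27 normalized counts in PSC and 4.93 and 9.57 in PSC+SCG. Wnt7a did not exceed 5.68 and Wnt16 ranged from 4.26 to 43.4 over the 6 libraries, with overlap. The summed markers of dividing cells were 49030 to 67880 in PSC and 47093 to 65947 in PSC+SCG, and the summed glial markers 126 to 184 and 159 to 186. The summed neuronal markers were 2017 to 2681 in PSC and 2711 to 2796 in PSC+SCG, nearly all of it Tubb3 and Hand2, while 8 of the 10 genes had means under 10 in both groups. The part of these markers in the results above was not tested.

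The sequences before the start sites of Lgr6, Wnt4 and Wnt10b are shown because TCF/LEF factors are the nuclear end of the beta-catenin branch. These members passed in PSCs with the replicate block, and none of them passed without it. The TCF/LEF motif was searched as CTTTGAA or CTTTGAT on both strands. Each sequence is the 250 bases before the start of the canonical transcript on GRCm39, read 5′ to 3′ on the strand of the gene, with any match in capitals. Lgr6 lies on chromosome 1 (134911039 to 135033100, minus strand) and its window is chr1:135033101-135033350. Wnt4 lies on chromosome 4 (137004373 to 137027037, plus strand) and its window is chr4:137004123-137004372. Wnt10b lies on chromosome 15 (98668593 to 98690045, minus strand) and its window is chr15:98676450-98676699. The window of Lrp6, chr6:134544213-134544462 on the minus strand, is added as the one window with a match among members that reached a mean of 10 normalized counts.
Lgr6: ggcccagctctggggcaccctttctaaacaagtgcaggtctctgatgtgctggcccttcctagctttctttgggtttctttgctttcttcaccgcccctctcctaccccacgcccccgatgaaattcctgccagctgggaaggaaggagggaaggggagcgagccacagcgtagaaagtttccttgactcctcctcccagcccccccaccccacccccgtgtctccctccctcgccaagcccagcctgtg
Wnt4: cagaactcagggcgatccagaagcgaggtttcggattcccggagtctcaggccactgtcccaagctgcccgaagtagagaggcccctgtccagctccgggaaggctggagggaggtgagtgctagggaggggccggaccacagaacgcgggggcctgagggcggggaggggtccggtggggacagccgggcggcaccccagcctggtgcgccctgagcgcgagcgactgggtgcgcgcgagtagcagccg
Wnt10b: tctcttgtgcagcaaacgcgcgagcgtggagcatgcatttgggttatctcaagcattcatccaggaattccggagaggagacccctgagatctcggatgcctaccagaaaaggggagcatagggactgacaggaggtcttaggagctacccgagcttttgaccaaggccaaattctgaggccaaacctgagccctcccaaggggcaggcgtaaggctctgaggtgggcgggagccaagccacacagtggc
Lrp6: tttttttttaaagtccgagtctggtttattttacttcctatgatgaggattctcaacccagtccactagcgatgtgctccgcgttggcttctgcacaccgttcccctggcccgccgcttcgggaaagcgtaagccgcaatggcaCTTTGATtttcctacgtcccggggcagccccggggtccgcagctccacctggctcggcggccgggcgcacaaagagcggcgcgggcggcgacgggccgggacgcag
The first 3 windows hold no match, nor does that of Sfrp2, which also passed with the block and is not shown. The match in the Lrp6 window begins 106 bases before the start. A match was found in 3 of the 46 windows of members (6.52%, the others being Dkk4 and Wnt8a) and in 1626 of the 21621 windows of protein-coding genes (7.52%). The deposited values do not show which start site the cells used, and a window of this length leaves out distant sites.

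In the explants the comparison of SCG+PSC with SCG asks the reverse question, what stellate cells do to the ganglion's Wnt system. Lgr6 and Sfrp4 were higher and Wnt16 and Rspo1 lower in each same-numbered pair, and no member passed the threshold. Of the 41 members tested, 22 were higher and 19 lower, with a median log2 fold change of 0.02 against 0.01 over all 15908 protein-coding genes tested. Limma without a block called 0 of the 41, against 0.0189% of protein-coding genes, with 4 at an unadjusted p under 0.05, where 4.14% of protein-coding genes had one. With the block it called 0, against 1.94% of protein-coding genes, with 7 at an unadjusted p under 0.05, where 13.3% of protein-coding genes had one. edgeR on the recovered reads, with and without the block, and DESeq2 also called 0 members. For 5 members, Fzd8, Lrp5 and Sfrp4 higher and Wnt16 and Rspo1 lower, the groups did not overlap, against 7.12% of protein-coding genes, and these stayed apart with the fourth SCG+PSC library added.

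Lgr6 had 3138, 2748 and 2091 normalized counts in SCG, 2732, 2734 and 2454 in SCG+MEF, and 4359, 3706, 2908 and 2882 in SCG+PSC. It was higher in each pair of SCG+PSC with SCG, with overlap, and all 4 SCG+PSC libraries lay above all SCG+MEF libraries. The log2 fold change against SCG was 0.46 ± 0.18 without a block (adjusted p = 1.0) and 0.46 ± 0.09 with it (adjusted p = 0.0252, range over 15 settings 0.0217 to 1.0). This met the limit on the adjusted p and fell short of the fold-change limit of 0.5. Against SCG+MEF it was 0.45 ± 0.09 with the block (adjusted p = 0.0401, range 0.034 to 1.0), short of the same limit. Without SCG+PSC replicate 3 both passed, at 0.51 (adjusted p = 0.0275) and 0.50 (adjusted p = 0.0486). That was the 1 call among the 9 block fits that left out 1 library in each comparison. In the others the adjusted p rose to as much as 0.182 against SCG and 0.267 against SCG+MEF. Summed glial markers were 44722 to 60215 in SCG, 48330 to 63557 in SCG+MEF and 47964 to 60193 in SCG+PSC, and replicate 3 was the lowest of each group for them as for Lgr6 in SCG and SCG+MEF. The other receptors of R-spondins overlapped between all 3 groups, Lgr4 at 1494 to 1755 and Lgr5 at 396 to 1037 normalized counts over the 10 libraries.

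Wnt16 had 237, 135 and 367 normalized counts in SCG, 128, 80.6 and 264 in SCG+MEF, and 131, 83.1, 80.1 and 101 in SCG+PSC. The SCG+PSC libraries lay below the SCG libraries, most of all in replicate 3, at a log2 fold change of -1.24 ± 0.30 with the block (adjusted p = 0.0738). Without SCG+PSC replicate 3 it was -0.71 (adjusted p = 0.0933), and without SCG+PSC replicate 2 it was -1.52 and passed (adjusted p = 0.022). That was the 1 call among the 9 block fits that left out 1 library (adjusted p up to 0.39). Rspo1 was low everywhere, with 31.4, 28.5 and 24.6 normalized counts in SCG, 24.3, 20.1 and 8.11 in SCG+MEF and 16.3, 5.07, 6.41 and 9.08 in SCG+PSC. Its log2 fold change in SCG+PSC was -1.66 ± 0.43 with the block (adjusted p = 0.0993). Rspo2, Rspo3 and Rspo4 overlapped between these groups, with Rspo3 at 116, 50.4 and 117 in SCG and 126, 62.9, 62.0 and 87.8 in SCG+PSC.

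Fzd8, with Fzd1 the most abundant Frizzled gene of the explant per kilobase, had 1989.5, 2326 and 2007 normalized counts in SCG, 3121, 2372 and 2004 in SCG+MEF and 2984, 2778, 2341 and 2539 in SCG+PSC. All SCG+PSC libraries lay above all SCG libraries, and SCG+MEF overlapped with both (log2 fold change of SCG+PSC against SCG 0.35 ± 0.11 with the block, adjusted p = 0.210). Lrp5 had 2926, 3047 and 2844 normalized counts in SCG, 2552, 3354 and 2369.9 in SCG+MEF, and 3349.8, 3367, 3405 and 3138 in SCG+PSC, a log2 fold change against SCG of 0.20 ± 0.10 with the block (adjusted p = 0.494). Its partner Lrp6 overlapped between the groups, with a log2 fold change of -0.08. Fzd2, Fzd3, Fzd4, Fzd5, Fzd6 and Fzd7 overlapped as well, Fzd3 at 2441 to 3479 and Fzd6 at 147 to 281 over the 10 libraries.

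**Figure D3:**
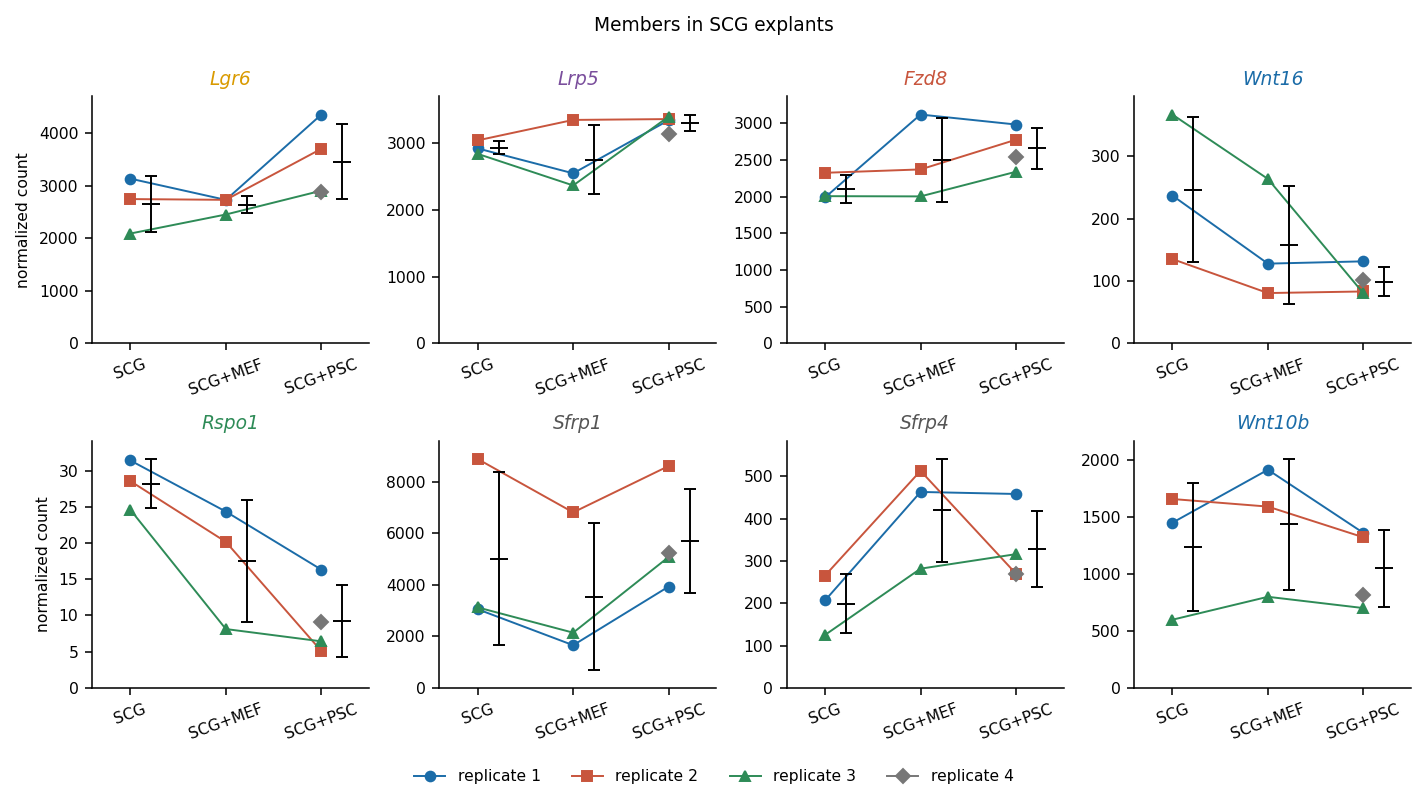
Normalized counts of 8 members in each library of SCG, SCG+MEF and SCG+PSC, each axis starting at 0; lines join libraries with the same replicate number, the grey diamond is SCG+PSC replicate 4, and the black bar right of each group is its mean ± SD (n = 3, 3 and 4). Sfrp1 in replicate 2 (8876, 6805 and 8605) stands far above the other libraries in every group, while in each replicate SCG+MEF is the lowest of the 3.

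The comparison of SCG+MEF with SCG shows the explants beside another fibroblast, the 3T3 line. Of the 41 members, 18 were higher and 23 lower, with a median log2 fold change of -0.04 against 0.03 over all protein-coding genes tested. Limma called 0 members without a block, against 0.0189% of protein-coding genes, and 1 member had an unadjusted p under 0.05, where 2.44% of protein-coding genes had one. With the block it again called 0, against 0.239% of protein-coding genes, with 7 at an unadjusted p under 0.05, against 8.1%, and edgeR and DESeq2 called 0. The groups did not overlap for 3 members, Sfrp4 higher and Fzd9 and Rspo1 lower, against 4.98% of protein-coding genes. Sfrp4, a secreted frizzled-related protein of stromal cells, had 207, 265 and 125 normalized counts in SCG, 463, 513 and 282 in SCG+MEF and 459, 269.6, 316 and 269 in SCG+PSC. Every library cocultured with either line lay above every library of SCG alone. The log2 fold change with the block was 1.09 ± 0.21 beside 3T3 cells (adjusted p = 0.0921, range 0.0284 to 1.0) and 0.83 ± 0.21 beside PSCs (adjusted p = 0.0972, range 0.0868 to 1.0). With the block, leaving out SCG replicate 2 or SCG+PSC replicate 2 brought both past the threshold. Beside 3T3 cells these fits gave 1.33 (adjusted p = 0.0437) and 1.09 (adjusted p = 0.00282), and beside PSCs 1.07 (adjusted p = 0.0446) and 1.20 (adjusted p = 0.000966). Leaving out SCG+PSC replicate 3 did so for the 3T3 comparison alone (adjusted p = 0.024). No SCG+PSC library is part of that comparison. Leaving out any of them kept its log2 fold change at 1.09 and moved the spread that the groups share. Of the 9 block fits that left out 1 library, 3 passed beside 3T3 cells (adjusted p up to 0.428) and 2 beside PSCs (up to 0.437). These 2 comparisons share the SCG libraries.

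SCG+PSC against SCG+MEF sets the lines side by side. Without a block limma called 0 of 41 members, against 0% of protein-coding genes, with 3 at an unadjusted p under 0.05, where 3.07% of protein-coding genes had one. With the block it called 1, Sfrp1, against 1.14% of protein-coding genes, and 8 had an unadjusted p under 0.05, against 14.8%. The groups did not overlap for 3 members, all higher in SCG+PSC (Lgr6, Wnt7a and Rspo4), against 7.01% of protein-coding genes, and with the fourth SCG+PSC library Rspo4 overlapped. Sfrp1, on chromosome 8 (23901263 to 23939648, plus strand), had 3048, 8876 and 3119 normalized counts in SCG, 1652, 6805 and 2138 in SCG+MEF, and 3928, 8605, 5077 and 5221 in SCG+PSC. Replicate 2 was far above the others in every group, as the fibroblast markers were, and within each replicate SCG+PSC lay above SCG+MEF. The log2 fold change was 0.95 ± 0.55 without a block (adjusted p = 1.0) and 0.95 ± 0.15 with it (adjusted p = 0.0219, range 0.0184 to 1.0). edgeR on the recovered reads with the block also called it (0.95, adjusted p = 0.0184). The call was lost when SCG+MEF replicate 1, SCG+MEF replicate 3 or SCG+PSC replicate 1 was left out, where the log2 fold change was 0.80, 0.88 and 0.86. Against SCG alone, the log2 fold change of Sfrp1 with the block was 0.34 ± 0.15 beside PSCs (adjusted p = 0.440) and -0.60 ± 0.15 beside 3T3 cells (adjusted p = 0.229). Neither passed with all libraries, and both passed when SCG+PSC replicate 2 was left out (0.59, adjusted p = 0.0197, and -0.60, adjusted p = 0.0249). For each it was the 1 call among the 9 block fits that left out 1 library. That library is in neither group of the 3T3 comparison, whose log2 fold change stayed at -0.60. Without SCG+PSC replicate 3 the value beside PSCs was 0.17 (adjusted p = 0.798).

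Sfrp5 was at 0.56 on the log2 scale in the same comparison (adjusted p = 0.519 with the block) and passed when SCG+MEF replicate 2 was left out (1.10, adjusted p = 0.0484). It did not pass in the rest of the 9 block fits that left out 1 library (adjusted p up to 0.891). Wnt7a, a ligand that neurons use in synapse formation, had 32.4, 4.76 and 7.17 normalized counts in SCG, 9.12, 13.1 and 0 in SCG+MEF and 27.8, 16.2, 31.0 and 30.3 in SCG+PSC. The SCG+PSC libraries lay above the SCG+MEF libraries, at low counts (adjusted p = 0.265 with the block). Wnt10b had 1449, 1657 and 597 normalized counts in SCG, 1914, 1591 and 799 in SCG+MEF and 1359, 1321, 699.7 and 818 in SCG+PSC, low in replicate 3 of every group, and its groups overlapped. Wnt5a had 329, 846 and 658 in SCG, 332, 714 and 408 in SCG+MEF, and 443, 813, 710.4 and 529.5 in SCG+PSC, also with overlap. Wnt4 had 125, 217 and 112 in SCG, 164, 166 and 117 in SCG+MEF and 146, 154, 111 and 136 in SCG+PSC. The remaining ligands of the explant were Wnt2b at 106 to 340 normalized counts over the 10 libraries, Wnt9a at 140 to 234, Wnt6 at 44.7 to 112, Wnt11 at 19.3 to 94.2, Wnt3 at 29.4 to 99.3, Wnt7b at 4.1 to 37.4, Wnt2 at 7.09 to 40.0 and Wnt5b at 2.03 to 24.3, each overlapping between groups. Wnt1, Wnt8b, Wnt9b and Wnt10a did not exceed 6.66, Fzd10 ranged from 4.03 to 14.3 and Sfrp5 from 58.0 to 287. The summed markers of dividing cells were 4831 to 16949 in SCG, 5896 to 17909 in SCG+MEF and 14037 to 24090 in SCG+PSC, with all 6 genes measured in each group, and the summed endothelial markers 1472 to 2147, 2148 to 2322 and 2120 to 3081. Summed fibroblast markers were 208256 to 390833 in SCG, 286399 to 405357 in SCG+MEF and 281765 to 390570 in SCG+PSC. In limma with the block, Lum was higher than in SCG beside 3T3 cells (log2 fold change 1.29, adjusted p = 0.00168). It was also higher beside PSCs (0.65, adjusted p = 0.0302). Dcn was higher beside 3T3 cells (0.74, adjusted p = 0.0371) and did not pass beside PSCs (0.51, adjusted p = 0.0655). Col1a1, Col1a2, Col3a1, Pdgfra and Pdgfrb did not pass beside either line, and Pdgfrb was lower beside both. Without a block no fibroblast marker passed. The part of all these markers in the differences of Lgr6, Sfrp1 and Sfrp4 was not tested.

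**Figure D4:**
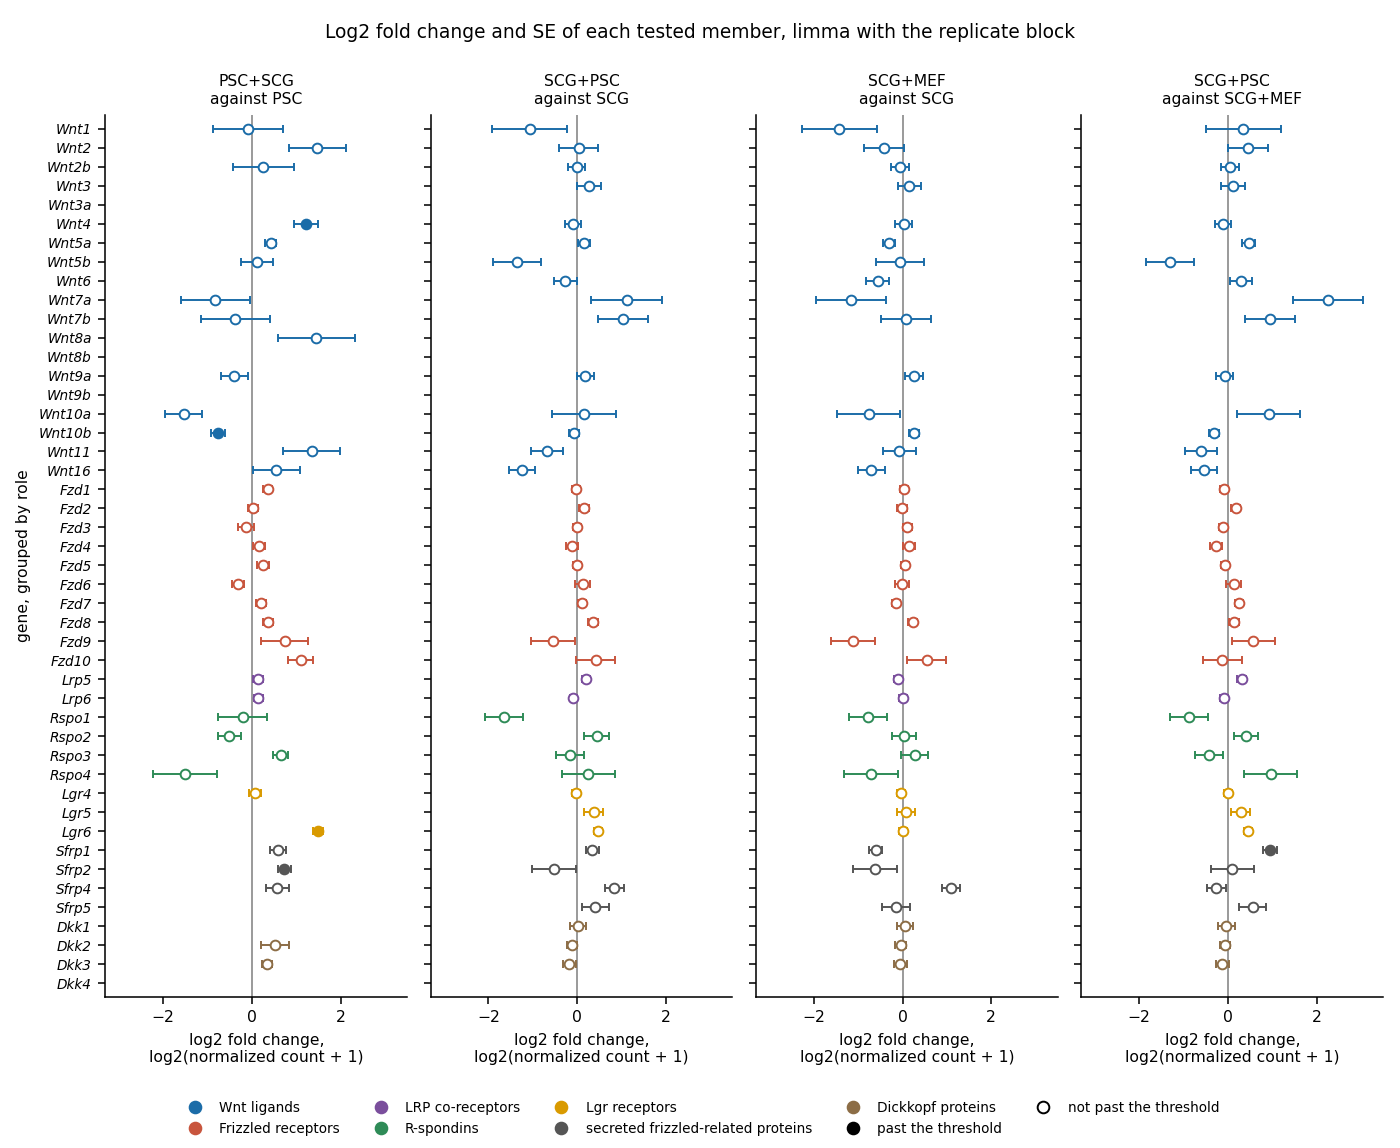
Log2 fold change (points) and SE (bars) of each tested member in the 4 comparisons, from limma with the replicate number as a block on log2(normalized count + 1); filled points passed the threshold, open points did not, and members without a point were not tested. The filled points are Lgr6 (1.48), Wnt4 (1.22), Sfrp2 (0.74) and Wnt10b (-0.76) in PSC+SCG against PSC and Sfrp1 (0.95) in SCG+PSC against SCG+MEF; genes with low counts have the long bars.

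Beyond these genes, 55 others of the pathway were read in the same fits. They were 18 transducers from Dvl1 to Pygo2, 13 feedback and target genes, 2 genes of ligand secretion, 11 receptors of the branches without beta-catenin, 7 further antagonists and 4 further cofactors. Without a block none passed in any comparison by limma. Few had an unadjusted p under 0.05 in that fit. In PSC+SCG against PSC it was 1 of 50 tested, against 1.41% of protein-coding genes. It was 2 of 53 in SCG+PSC against SCG (4.14% of protein-coding genes) and 2 of 53 in SCG+MEF against SCG (2.44%). In SCG+PSC against SCG+MEF it was 4 of 53 (3.07%). DESeq2 called Frzb and Sostdc1, 1 gene each, in the explants. In PSCs 50 were tested, 31 higher and 19 lower with a median log2 fold change of 0.05, and 0 passed with the block, against 0.523% of protein-coding genes, with 5 at an unadjusted p under 0.05, against 6.09%. Axin2, the feedback gene most often used to read beta-catenin activity, was near the floor in PSCs, with 16.9, 21.6 and 19.3 normalized counts in PSC and 8.9, 9.87 and 23.4 in PSC+SCG (log2 fold change -0.55 ± 0.43 with the block, adjusted p = 0.893). Lef1, a nuclear partner of beta-catenin, had 470.1, 565 and 477 normalized counts in PSC and 369.8, 342 and 313 in PSC+SCG. It was lower in all coculture libraries and did not pass (log2 fold change -0.56 ± 0.14 with the block, adjusted p = 0.0777). In the explants Lef1 had 162, 132 and 131 normalized counts in SCG, 129.8, 214 and 121 in SCG+MEF and 176, 225, 291 and 215 in SCG+PSC, higher beside PSCs than in SCG without overlap (log2 fold change 0.67 ± 0.23 with the block, adjusted p = 0.280). Lef1 was named after its values were seen.

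In the explants 53 of the 55 were tested. With the block, 2 passed in SCG+PSC against SCG, 1 in SCG+MEF against SCG and 2 in SCG+PSC against SCG+MEF, where 1.94%, 0.239% and 1.14% of protein-coding genes passed. Frzb, another secreted frizzled-related antagonist, had 1309, 1603 and 912 normalized counts in SCG, 968, 753 and 613 in SCG+MEF and 748, 519, 316 and 326 in SCG+PSC. It was lower beside PSCs in every library, by -1.32 ± 0.15 on the log2 scale with the block (adjusted p = 0.00318, and 0.947 without a block). Tcf7, a partner of beta-catenin, had 391, 571 and 275 normalized counts in SCG, 304, 624 and 273 in SCG+MEF and 552, 841, 544 and 598 in SCG+PSC. It was higher beside PSCs in each same-numbered pair while the groups overlapped, with a log2 fold change against SCG of 0.68 ± 0.13 with the block (adjusted p = 0.0276) and against SCG+MEF of 0.76 ± 0.13 (adjusted p = 0.0303). Sostdc1, which binds Lrp5 and Lrp6, had 425, 526 and 337 normalized counts in SCG, 227, 294 and 196 in SCG+MEF and 465, 484, 457 and 480.1 in SCG+PSC. It was lower beside 3T3 cells than in SCG (-0.84 ± 0.13 with the block, adjusted p = 0.0295) and higher beside PSCs than beside 3T3 cells (0.99 ± 0.13, adjusted p = 0.0168), comparisons that share the SCG+MEF libraries. Axin2 had 281, 245 and 284 normalized counts in SCG, 396, 275 and 325 in SCG+MEF and 320.4, 193, 249 and 334 in SCG+PSC, and did not pass in any comparison (log2 fold change in SCG+PSC against SCG -0.12 ± 0.13 with the block, adjusted p = 0.832).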

How the data were processed

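The authors aligned stranded mRNA-seq reads with STAR 2.7.10b, counted them on GENCODE genes (GRCm39) and deposited counts divided by DESeq2 size factors, a signal whose values were normalized within each of the 2 tables apart (per the methods and the labels' processing notes, with R 4.2.2 and DESeq2 1.38.3). Whole reads were recovered from the step of the deposited values in 14 of the 16 libraries, where 100.0% of values came out whole within 0.1 reads. They gave 31900689 to 41632381 reads on genes.

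Here the main test was limma 3.58.1 (R 4.3.3, empirical Bayes with a trend) on log2(normalized count + 1), which understates the change of low genes. Genes with a sum of at least 10 entered, and Benjamini-Hochberg adjustment ran over all of them. A gene passed where its adjusted p did not exceed 0.05 and its log2 fold change was 0.5 or more in either direction. The SCG groups were fitted together with SCG+PSC replicates 1 to 3, and replicate 4 entered an alternative and the levels. The study modelled experimental dates, which nothing ties to single libraries, so the main fit has no block. Same-numbered libraries deviated together: the correlations of their deviations from the group means were 0.231 to 0.475 for PSC+SCG with PSC, 0.170 to 0.290 for SCG+PSC with SCG, 0.253 to 0.382 for SCG+MEF with SCG and 0.135 to 0.205 for SCG+PSC with SCG+MEF. The numbers were therefore taken to pair the libraries, a pairing that comes from the data, and the fit with the replicate block is given wherever it changes a call. Alternatives were other pseudocounts (0.5 and 8), filters and normalization, edgeR 4.0.16 and DESeq2 1.42.0 on the recovered reads of the SCG table, and each library left out in turn. The limma fit without a block was tested on simulated data first, for PSC+SCG against PSC and for SCG+PSC against SCG. The simulated libraries had no deviation shared by replicate number, and changes were put only into well-measured genes. That test therefore cannot show how the fit performs on libraries that deviate together. The fits with a block, edgeR and DESeq2 were not tested in this way.

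Levels of different genes were compared per kilobase of the union of exons (GENCODE, GRCm39). Promoter windows are reference sequence. A member was described with values where a group mean reached 10, and in every library where it passed, had an unadjusted p under 0.05 in any comparison, was Wnt5a, Lgr6 or Sfrp2, or was among the 5 highest per kilobase. Of the other pathway genes, those that passed and Axin2 were named. The members and all lists were chosen with earlier results of these data known.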

Additional observations from a re-analysis of the deposited data

Results flagged for a closer look

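In SCG+PSC replicate 2, 4 members stood apart from the other 3 libraries of that group. Wnt2b was at 106.4 normalized counts against 251 to 272, and Wnt9a at 141.9 against 207 to 217. Fzd2 was at 934.6 against 824 to 836, and Fzd7 at 1913.9 against 1181 to 1293. Their gaps to the nearest library, as shares of the group's range, were 0.872, 0.865, 0.888 and 0.848, above Dixon's 95% critical value for 4 libraries. Chance flags about 1 in 20 groups, and 34 members were tested. The same library had the lowest summed neuronal markers (127030) and the highest summed fibroblast markers (390570) of its group, and their part in these values was not tested.

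In the fit with the replicate block, the change of Sfrp1 in explants differed between the lines they were cultured with. Without a block the difference did not pass. With it, 6 of the 9 fits that left out 1 library kept the call (adjusted p up to 0.231). Neither change against SCG passed with all libraries. The log2 fold change beside PSCs minus that beside 3T3 cells was 0.945 with the replicate block, the value of the direct comparison of SCG+PSC with SCG+MEF, since both share the SCG libraries, and SCG+PSC was higher in 3 of 3 same-numbered pairs.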

How the results depend on the processing

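Taking the replicate number as a block was the choice that moved the calls. Members past the threshold went from 0 to 4 in PSC+SCG against PSC and from 0 to 1 in SCG+PSC against SCG+MEF, and stayed at 0 in the other comparisons. Over all genes tested the block moved the calls from 0 higher and 0 lower to 67 and 31 in PSC+SCG against PSC, from 3 and 0 to 284 and 29 in SCG+PSC against SCG, from 3 and 0 to 27 and 11 in SCG+MEF against SCG, and from 0 and 0 to 155 and 30 in SCG+PSC against SCG+MEF. With replicates 3 taken out of the shared block (each in its own, or SCG and SCG+MEF together), 4 members passed in PSC+SCG against PSC (Wnt4, Lgr6, Sfrp2 and Rspo3) and 1 in each other comparison (Lgr6, Sfrp4 and Sfrp1 in the order above). In PSCs this fit, like each block fit that left out 1 library, had 1 residual degree of freedom and relied on a spread shared across genes. The block fit of all 6 PSC libraries also drew on that shared spread, which brought its total to 22.37 degrees of freedom. With the block, leaving out 1 library gave 1 to 4 members in PSC+SCG against PSC, 0 to 3 in SCG+PSC against SCG, 0 to 2 in SCG+MEF against SCG and 0 to 2 in SCG+PSC against SCG+MEF. edgeR with the block called 1 member in SCG+PSC against SCG+MEF. Of the other pathway genes, against 0 without a block, the block gave 2, 1 and 2 in the explant comparisons in that order, the split block 1, 1 and 2, edgeR with the block 2, 1 and 3, and DESeq2 without a block 1 in SCG+PSC against SCG and 1 in SCG+PSC against SCG+MEF. Without a block, 0 members passed under any other setting run. For the 17 results of single members, alternative values were tallied against the fit without a block, in which none passed. Of these values, 314 of 326 kept their direction and side of the threshold, 12 passed newly and 0 reversed. With no call to lose, the tally does not test the calls made with the block. Those were tested by leaving out 1 library from the block fit. In PSC+SCG against PSC, Lgr6 stayed called in 6 of 6 such fits, Wnt4 and Sfrp2 in 2 of 6 and Wnt10b in 1 of 6. Sfrp1 in SCG+PSC against SCG+MEF stayed called in 6 of 9. edgeR and DESeq2 were not run on the PSC table, whose reads could not be recovered for all 6 libraries. Depth limits the low members: Wnt2, Wnt7a, Rspo1, Rspo4 and Fzd9 rest on few reads, and no difference in members at 0 was detectable.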

Other observations

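Beyond the members, some pathway genes set the 2 cell sources apart in level. Values come from tables normalized apart and were not tested. Nkd2, a feedback inhibitor of Wnt signalling that binds Dishevelled, had 29.2 ± 5.50 normalized counts in PSC and 9880 ± 1593 in SCG (SD, n = 3). Celsr3, a cadherin of the planar polarity branch known for axon guidance, had a mean of 1.92 in PSC and 2739 in SCG. Ptk7, a co-receptor of the same branch, went the other way, with means of 6478 in PSC and 1344 in SCG, as did Ror2, a receptor of Wnt5a, at 1279 and 431. Wls, which carries Wnt ligands to the cell surface, had means of 9905 in PSC and 4186 in SCG. These genes were chosen after their values were seen.

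Among markers of sympathetic neurons, Hand2, a transcription factor of sympathetic neurons that other mesenchymal cells also use, was the one abundant in PSCs apart from the tubulin gene Tubb3, at 554 to 996 normalized counts over the 6 libraries. Mki67, a marker of dividing cells, rose in SCG+PSC against SCG in the fit with the replicate block (log2 fold change 1.34, adjusted p = 0.00854) and against SCG+MEF (adjusted p = 0.0321), comparisons that share the SCG+PSC libraries. Without a block neither passed (adjusted p = 1.0 for both).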
